A study of Sus scrofa with 6 samples.

Results

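The transcripts described here are the lncRNAs that reach over at least 10 kb of the pig genome from their first to their last base. They were 2341 of the 19310 lncRNAs in the deposited table (12.1%) and were chosen by coordinates alone, as rows whose end minus start plus 1 is 10000 or more. The lung RNA came from 6 female hybrid piglets with a Tibetan sire and a Meishan dam, each from a different sow. The fetal group (the submitters' "prenatal") held 3 piglets taken on the last day before birth, and the neonatal group held 3 piglets taken 2 days after birth. All 6 piglets were of the same cross, and 1 strand-specific, rRNA-depleted library was made from frozen lung tissue of each.

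LncRNAs are transcripts over 200 nt with no predicted protein product. A transcript that covers many kilobases is usually spliced, since the introns count in its genomic span and not in its mature length, and it takes RNA polymerase II longer to complete than a compact, unspliced transcript. Well-known long-span lncRNAs act in the nucleus, at their site of transcription or as scaffolds, and many lie antisense to protein-coding genes or head to head with their promoters. At birth the lung clears its liquid and begins to breathe air, and its epithelial, vascular and immune cells all change their programmes of transcription.

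Values are FPKM, fragments per kilobase of transcript scaled by the number of mapped reads, so the exon length and not the span enters the value. The tables hold no read counts, so the depth behind a value is unknown from them and the spread between the 3 piglets of a group is the error used throughout. An exact 0 may mean that no estimate was reached as well as that no read was found, so such a lncRNA is called listed at 0. Where several overlapping transcripts compete for the same reads, Cufflinks also leaves values so close to 0 that they carry no signal, and these are given as under 0.001 FPKM. Differences are neonatal minus fetal of log2(FPKM + 1), a scale on which the change of weakly expressed transcripts is understated, and p-values come from limma with Benjamini-Hochberg adjustment over all 19310 lncRNAs.

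The libraries did not list the same number of lncRNAs at 0. Of all lncRNAs, between 9.29% and 13.2% were listed at 0 in Fetal1, Fetal2 and Neonatal1, and between 27.2% and 31.3% in Fetal3, Neonatal2 and Neonatal3. The lung label was matched by its markers, as surfactant protein C (SFTPC) had 3171 to 8790.1 FPKM across the libraries. Of the neutrophil marker list, 2 of 5 genes were measured and 1 was past the threshold and higher, where 5.41% of all 14579 mRNAs were. Its summed level was 28.2 to 39.1 FPKM in fetal and 188 to 287 FPKM in neonatal lungs, and S100A8, a calcium-binding protein of neutrophils, rose at an adjusted p of 0.00254 in limma. None of the measured genes of the alveolar type I and II, endothelial, ciliated, erythroid, macrophage and lymphocyte lists passed the threshold, with 0 to 3 of a list at an unadjusted p under 0.05, and with quantile normalization CAV1 of alveolar type I (-0.91, adjusted p = 0.0232), HBB of erythroid (-1.38, adjusted p = 0.0260) and CD68 of macrophage cells (1.05, adjusted p = 0.0493) passed it. The macrophage sum ranged from 112 to 334 FPKM in fetal and from 257 to 654 FPKM in neonatal lungs. Whether these cells had a part in the differences of the lncRNAs was not tested. In whole tissue, fewer cells of a type and less RNA per cell cannot be told apart.

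The spans of the 2341 lncRNAs ran from 10002 to 1004543 bases, with a median of 33112 and quartiles of 17034 and 66733 bases. The median span of the other 16969 lncRNAs was 644 bases. By size, 746 covered 10 to 20 kb, 739 covered 20 to 50 kb, 528 covered 50 to 100 kb and 328 covered 100 kb or more, of which 8 covered 500 kb or more. The shortest members were TU16151 (10002 bases), TU124367 (10010 bases) and TU76234 (10014 bases), with FPKM of 0.124 to 0.580, 0.00271 to 6.62 and 0.0562 to 1.2 across the samples. The longest lncRNAs left out, TU35620 (9992 bases), TU60059 (9985 bases) and TU28261 (9956 bases), ranged from 0 to 2.51, from 0 to 4.31 and from 0 to 96.7 FPKM.

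Long-span lncRNAs were found on all 18 autosomes and on X of Sscrofa10.2. Chromosome 13 carried the most (196), followed by chromosomes 1 (188) and 6 (168), while chromosome 17 carried 47. As a share of the lncRNAs of a chromosome, they made up between 11% on chromosome 17 and 17.0% (104 of 610) on chromosome 10, and 22.7% (84 of 370) on X. On unplaced scaffolds they were 178 of 3190 lncRNAs (5.58%), spread over 119 scaffolds. Strand was nearly even, with 1212 on the plus and 1129 on the minus strand (51.8% plus), against 49.3% plus among the shorter lncRNAs. The plus share was highest on chromosome 15 (58 of 93, 62.4%) and chromosome 9 (92 of 153, 60.1%), and lowest on chromosome 16 (25 of 62, 40.3%) and X (35 of 84, 41.7%). Since overlapping transcripts lie on the same strand of the same chromosome, these transcripts are not independent, and no test was made of either share. Both strands had a similar median difference between the groups, of -0.24 on the plus and -0.21 on the minus strand.

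**Figure D1:**
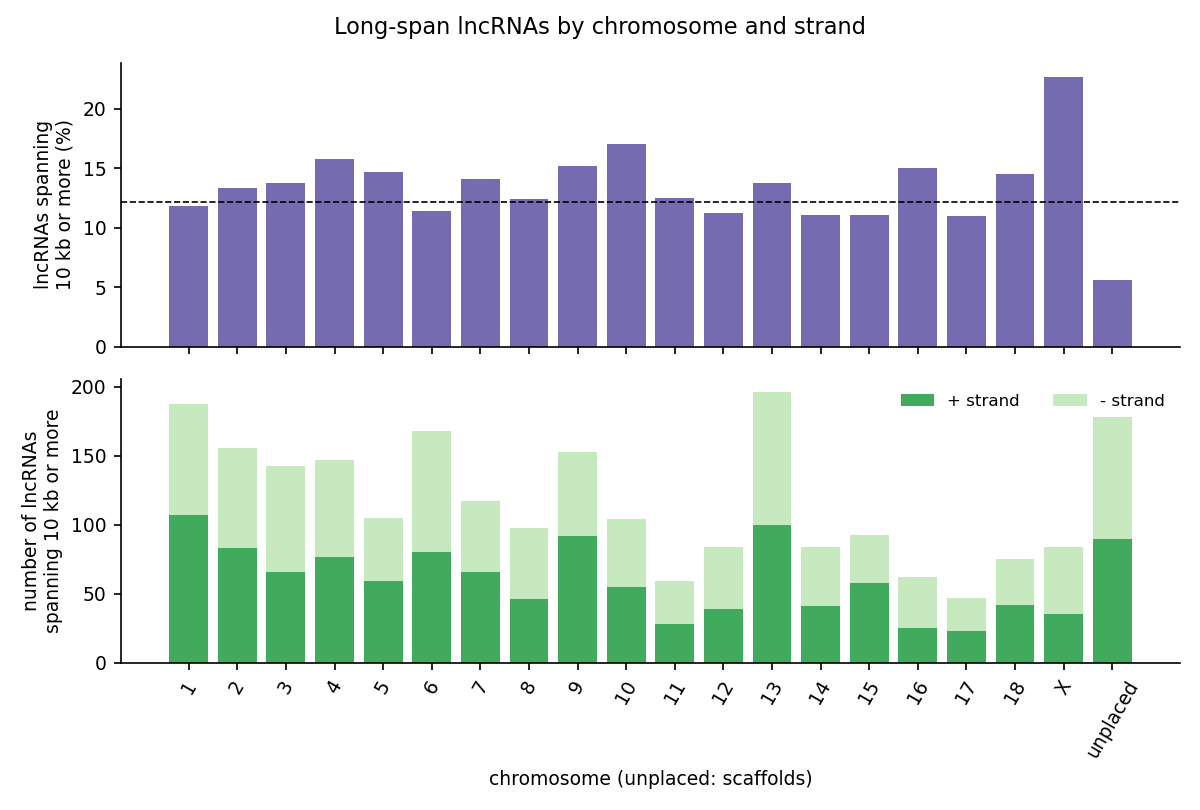
The upper panel shows the percent of the lncRNAs of each chromosome that span 10 kb or more, with the share of the whole table (12.1%) as a dashed line; the lower panel shows their number, stacked by strand. X stands at 22.7% and the unplaced scaffolds at 5.58%, and every autosome lies between 11% and 17.0%.

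Many of these lncRNAs were alternative transcripts of the same locus. When lncRNAs overlapping by at least 1 base on the same strand were joined, the 2341 fell into 1784 loci. In their loci, 1055 stood alone and 1286 shared the locus with other lncRNAs, up to 28 in all and up to 13 long ones. Identical start, end and strand were given for 276 of them, in 131 sets, so these differ only in internal structure that the table does not show. A further property was overlap with lncRNAs of the opposite strand, found for 495. Of the values of lncRNAs alone in their locus, 28.9% were 0 and 2.23% lay above 0 but under 0.001 FPKM. In shared loci 13.5% were 0 and 13.4% were under 0.001 FPKM.

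In each library, the share listed at 0 was higher in every class from 10 kb up than in the classes from 1 to 5 kb. In the class of 5 to 10 kb it was already 10.7%, 10.14% and 23.7% in fetal and 16.0%, 22.5% and 20.9% in neonatal samples. In Fetal2 that was above the 9.47% of 20 to 50 kb and the 10.06% of 100 kb or more. In Fetal1, 5.42% of the lncRNAs of 1 to 2 kb were listed at 0, 11.8% of those of 10 to 20 kb and 11.9% of those of 100 kb or more. In Neonatal2 these shares were 16.7%, 28.4% and 32.9%. Above 0 in all 6 samples were 1085 of the long-span lncRNAs (46.3%, against 41.1% of all lncRNAs), and 521 exceeded 0.1 FPKM in all 6 (22.3% against 28.8%). By class, the share above 0 in all 6 samples was 67.6% at 1 to 2 kb, 67.6% at 2 to 5 kb and 54.8% at 5 to 10 kb, and then stayed between 45.1% and 47.2% in the 4 classes from 10 kb up. The class under 1 kb stood apart, with 27.8% above 0 in all samples. Each lncRNA had to exceed 0.1 FPKM in 2 replicates of a group to enter the table, so no class could hold fewer than 2 samples above 0, and 10.3% of the long-span lncRNAs were above 0 in exactly 2, against 6.82% of all.

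Against lncRNAs of 1 to 10 kb, the long-span lncRNAs were listed at 0 more often in 6 of 6 samples, by 5.24 to 12.6 percentage points (mean 8.45, exact sign-flip permutation test, two-sided p = 0.03125, the smallest that 6 samples allow). Against all lncRNAs under 10 kb, which are mostly under 1 kb, the difference ran from -2.74 to 4.38 points (mean -0.063, exact permutation p = 0.969). The second comparison depends on the limit. With FPKM of 0.1 or less in place of 0, the long-span lncRNAs exceeded the shorter ones by a mean of 8.22 points in all 6 samples (exact permutation p = 0.03125). The comparison with 1 to 10 kb was added after the data had been seen.

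Their levels were lower than those of shorter lncRNAs in every library. The median FPKM of the long-span lncRNAs was 0.696, 0.917 and 0.317 in the fetal and 0.621, 0.173 and 0.303 in the neonatal samples. For the shorter lncRNAs the medians were 1.11, 1.48 and 0.650 in fetal and 1.34, 0.481 and 0.628 in neonatal samples. In the class of 5 to 10 kb alone they were 0.742, 0.885 and 0.450 in fetal and 0.605, 0.324 and 0.449 in neonatal samples. In Fetal2 and Neonatal1 that class thus had a lower median than the long-span lncRNAs. On the log2(FPKM + 1) scale the medians differed by -0.32 to -0.53 within a sample (mean -0.37, lower in 6 of 6 samples, exact sign-flip permutation p = 0.03125), and by a mean of -0.24 against lncRNAs of 1 to 10 kb, also in all 6. The number of long-span lncRNAs above 10 FPKM was far steadier than these medians, at 112 to 133 in each library, and 10 to 21 were above 100 FPKM.

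**Figure D2:**
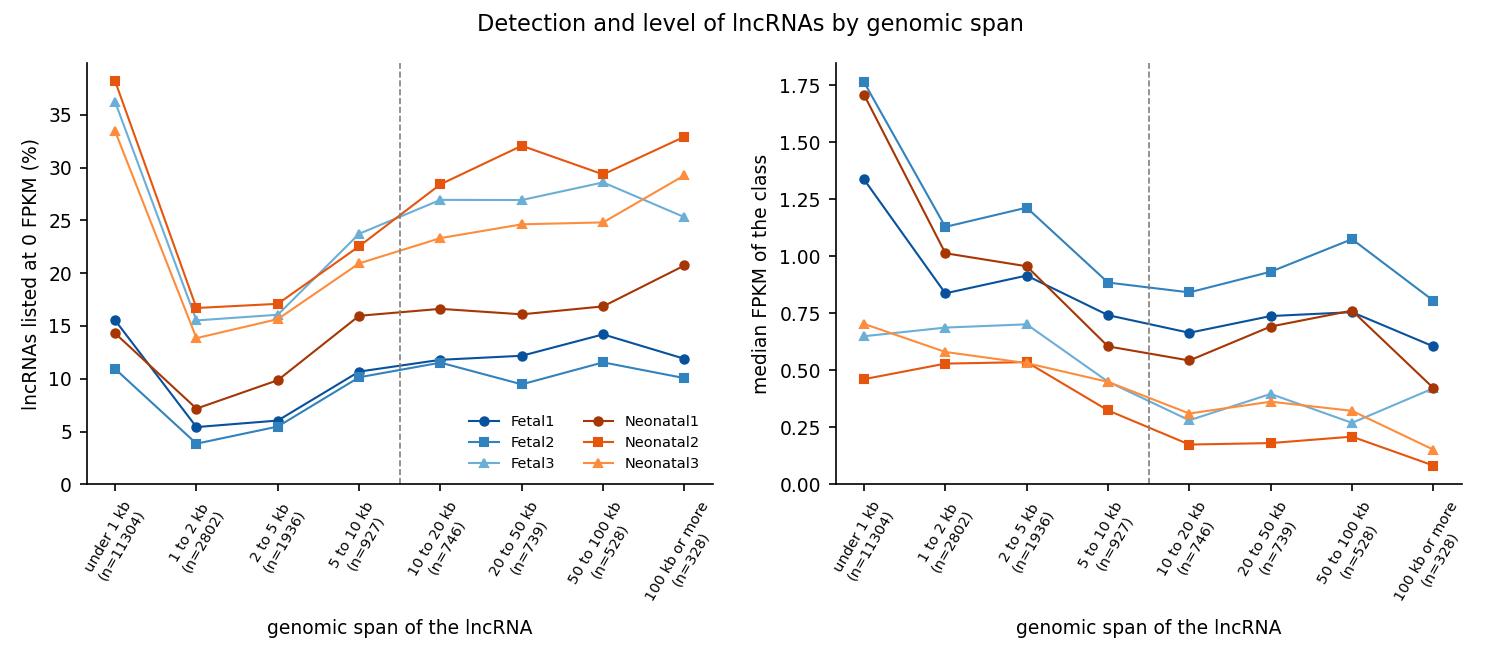
Each line is a sample, and the points give the percent of the lncRNAs of a span class listed at 0 FPKM (left) and the median FPKM of the class (right); the dashed line marks 10 kb. From 1 to 2 kb up, the share at 0 is higher at 10 to 20 kb in all 6 samples, and Fetal3, Neonatal2 and Neonatal3 lie above the other libraries in each class.

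Between the groups, the share of long-span lncRNAs listed at 0 was 12.5%, 10.7% and 27.1% in the fetal and 17.1%, 30.4% and 24.9% in the neonatal samples. Fetal3 lay among the neonatal values, so the groups overlapped. The means were 16.7% ± 9.0 and 24.1% ± 6.70 (SD, n = 3 each), a difference of 7.39 points with an exact permutation p of 0.3, where 3 against 3 cannot go below 0.1. Without Fetal3 the difference was 12.6 points, and without Neonatal2 it was 4.25 points. The share of shorter lncRNAs at 0 differed by 6.72 points (exact permutation p = 0.4).

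Of the summed FPKM of all lncRNAs, the long-span ones held 8.61%, 9.09% and 8.05% in fetal and 7.67%, 7.90% and 7.38% in neonatal lungs. All fetal values lay above all neonatal ones. The means were 8.58% ± 0.519 and 7.65% ± 0.258 (SD, n = 3 each), and the exact permutation p of 0.1 was the smallest this design allows. The share held by the lncRNAs of 100 kb or more was 1.75%, 2.19% and 1.07% in fetal and 1.09%, 0.806% and 0.774% in neonatal lungs, where Fetal3 fell just under Neonatal1. With 1 transcript per locus, the difference of the long-span share shrank from -0.936 to -0.412 points (exact permutation p = 0.2).

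None of the 2341 long-span lncRNAs passed an adjusted p of 0.05 in limma, in either direction, where 1 of all 19310 lncRNAs did (0.00518%). The lowest adjusted p among them was 0.183. At an unadjusted p under 0.05 there were 230 (9.82%), against 8.54% of all lncRNAs. Of these, 78 were higher in neonatal lungs (3.33% against 3.1% of all) and 152 lower (6.49% against 5.44%), so the shares stood near those of the table as a whole. A difference under 0 was given for 63.4%, against 58.7% of all. The median difference of the long-span lncRNAs was -0.23, that of all lncRNAs -0.15, and that of the lncRNAs under 10 kb -0.14. For the long ones it was -0.58 with a pseudocount of 0.1 and -0.13 without Fetal2. Quantile normalization took the median of all lncRNAs to 0.01 and that of the long ones to -0.06, and turned the split to 112 higher and 91 lower.

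That split also rested on single libraries. Without Neonatal2 it was 117 higher and 61 lower, and without Neonatal3 it was 94 and 60. Without Fetal3 it was 33 higher and 296 lower. Without Fetal1 it was 34 and 176, without Fetal2 35 and 125, and without Neonatal1 83 and 87. Fitting a term for the 3 libraries with the most lncRNAs at 0 gave 79 higher and 157 lower, with none past the threshold. The larger direction was thus not the same in all of these fits.

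**Figure D3:**
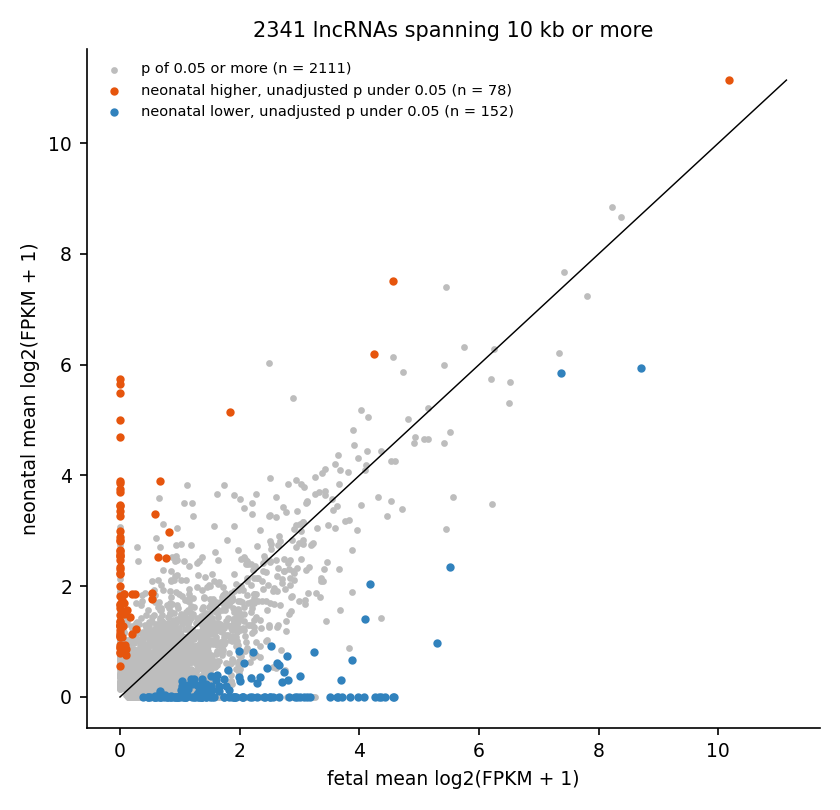
Each point is a long-span lncRNA, placed by its fetal (x axis) and neonatal (y axis) mean of log2(FPKM + 1), with the line of equality; the 78 and 152 transcripts with an unadjusted p under 0.05 are coloured by direction. Most coloured points lie along an axis, where a group is at or near 0, and none passed the adjusted threshold.

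Groups that do not overlap gave a similar picture. In 390 long-span lncRNAs (16.7%, against 13.2% of all) every neonatal value lay on the same side of every fetal value, with 112 higher (4.78% against 4.57%) and 278 lower (11.9% against 8.63%). Counting values under 0.001 FPKM as 0 left 353 (15.1% against 12.8%), with 101 higher (4.31% against 4.44%) and 252 lower (10.8% against 8.34%). Listed at 0 in all neonatal and above 0 in all fetal samples were 42 (1.79% against 1.32%), and 18 had the opposite pattern (0.769% against 0.627%). The authors' filter was met through the fetal group alone by 781 (33.4% against 24% of all) and through the neonatal group alone by 415 (17.7% against 12.8%), and 1145 met it in both (48.9% against 63.3%). A lncRNA that entered by a single group could not exceed 0.1 FPKM in 2 replicates of the other, which favours low values there. These counts thus describe the table and are no support for a difference.

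The lncRNAs of lowest p in each direction are described next, since none passed the threshold, and all have groups that do not overlap. TU133889 lies on the minus strand of chromosome X (67008573 to 67050933, 42361 bases) and is alone in its locus. Its FPKM was 13.2, 20.7 and 31.1 in fetal lungs and it was listed at 0 in all 3 neonatal lungs (difference -4.43, SE 0.64, adjusted p = 0.183). TU86525, on the minus strand of chromosome 6 (590313 to 627273, 36961 bases), had 15.7, 36.7 and 12.9 FPKM in fetal lungs and was likewise listed at 0 in every neonatal lung (difference -4.37, SE 0.67, adjusted p = 0.183). It overlaps 4 lncRNAs of the opposite strand. TU31448, on the minus strand of chromosome 13 (159067276 to 159081045, 13770 bases), had 24.7, 13.3 and 12.3 FPKM before birth and was listed at 0 after it (difference -4.09, SE 0.61, adjusted p = 0.183). With a pseudocount of 0.1 in place of 1 these 3 passed the threshold, at adjusted p of 0.0346 to 0.0362, and they passed it as well in the fit without a variance trend. They entered the table through the fetal group alone, and that filter favours low values in the other. These calls are thus no independent support for a difference.

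TU1440 had the highest fetal level among these lower lncRNAs. It covers 166473 bases of the plus strand of chromosome 1 (33891111 to 34057583), with 28.3, 35.9 and 54.9 FPKM in fetal lungs, 6.60 FPKM in Neonatal1 and 0 listed in Neonatal2 and Neonatal3 (difference -4.32, SE 1.00, adjusted p = 0.432). The lowest fetal value was thus far above that of Neonatal1. Neonatal2, Neonatal3 and Fetal3, which had the highest value, are the libraries that list the most lncRNAs at 0. Whether this had a part in the values of TU1440 was not tested. TU25163 on chromosome 13 (28978102 to 29005644) had 2.68, 3.77 and 9.41 FPKM and was listed at 0 in all neonatal samples. TU101854 on chromosome 7 (68456598 to 68470544) had 3.24, 5.41 and 2.61 FPKM, with neonatal values of 0 or under 0.001. A longer lncRNA of that locus, TU101852, was present in both groups, with under 0.001, 3.02 and 5.06 FPKM in fetal and 3.20, 3.66 and 0 FPKM in neonatal lungs.

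Among those higher after birth, TU20398 had the lowest p. It covers 224603 bases of the minus strand of chromosome 12 (24031433 to 24256035), with 0.00139, under 0.001 and under 0.001 FPKM in fetal and 6.75, 11 and 10.5 FPKM in neonatal lungs (difference 3.35, SE 0.54, adjusted p = 0.183). The fit without a variance trend put it past the threshold (adjusted p = 0.0451). It entered the table through the neonatal group alone and was chosen for its low p, so this call is no independent support for a difference. TU17154, 161089 bases on the minus strand of chromosome 11 (78792381 to 78953469), was listed at 0 in all fetal samples and had 7.10, 1.57 and 8.44 FPKM in neonatal ones (difference 2.54, SE 0.63, adjusted p = 0.432). TU85407 on chromosome 5 (86742073 to 86790673) was at or near 0 in fetal lungs and had 1.56, 9.67 and 6.20 FPKM in neonatal lungs. It lies in a locus of 3 lncRNAs and shares its ends with TU85406. That locus summed to 12.8, 5.99 and 0 FPKM in fetal and 20.5, 12.5 and 10.4 FPKM in neonatal lungs, with overlapping groups.

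The other transcripts of lowest p with higher neonatal values stayed under 4 FPKM. TU1159 and TU1160 share both ends on the plus strand of chromosome 1 (24736576 to 24786960, 50385 bases) and had nearly equal values, of 0.142, 0 and 0 in fetal and 2.30, 3.61 and 2.15 FPKM in neonatal samples, so they cannot be counted as separate observations. TU76543 (chromosome 4, 82197689 to 82215628) had 0, 0.0541 and 0 FPKM before and 1.18, 2.98 and 3.33 FPKM after birth. TU78844 (chromosome 4, 110184437 to 110255276) had 0, 0.162 and 0 FPKM before and 1.38, 3.15 and 2.47 FPKM after birth. In both, the only fetal value above 0 was that of Fetal2, the library with the fewest lncRNAs at 0. TU62731 (chromosome 2, 104541809 to 104589253) and TU89078 (chromosome 6, 41503041 to 41520885) were not of lowest p (adjusted p = 0.550 for both in limma). They were named as listed at 0 in all fetal and above 0 in all neonatal lungs. Their levels varied widely after birth, with 13.8, 0.919 and 2.70 FPKM and with 0.321, 2.46 and 8.59 FPKM.

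**Figure D4:**
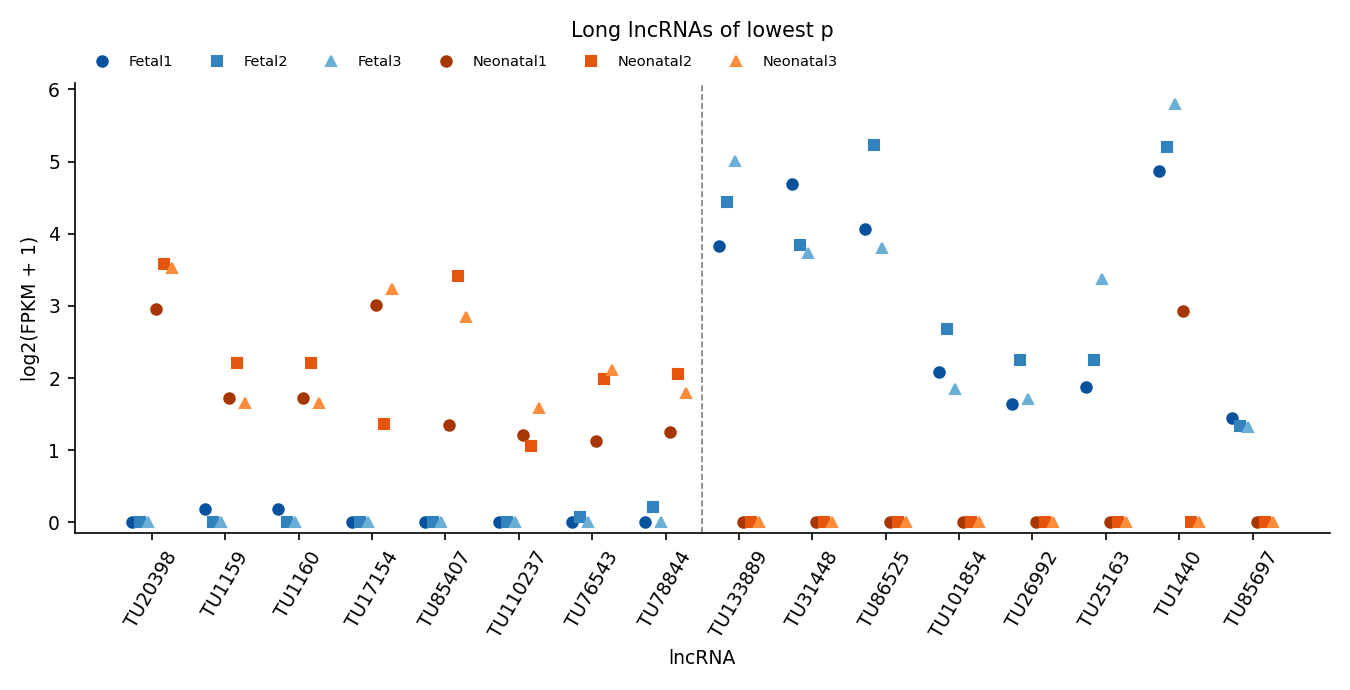
The log2(FPKM + 1) of the 8 long-span lncRNAs of lowest p with higher (left of the dashed line) and the 8 with lower (right) neonatal values is plotted for every sample, blue for fetal and orange for neonatal. In each transcript the groups do not overlap, and in TU1440 Neonatal1 alone of the neonatal samples is above 0.

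At several loci, transcripts with the same ends differed in opposite directions and offset each other in the sum of the locus. TU20396 has the same start, end and strand as TU20398 on chromosome 12, and had 18.9, 17.2 and 15.4 FPKM in fetal against 2.30, 2.91 and 4.39 FPKM in neonatal lungs. With the third transcript, TU20395, the locus summed to 19.8, 18.0 and 16.8 FPKM in fetal and 11.6, 13.9 and 14.9 FPKM in neonatal lungs (difference of the sum -0.41). The neonatal sums thus lay under the fetal ones by much less than TU20396 or TU20398 differed. On chromosome 9, TU110236 and TU110237 share the stretch from 7456634 to 7553629 on the minus strand (96996 bases). TU110236 had 1.42, 1.66 and 1.73 FPKM in fetal lungs and under 0.001, 0.974 and under 0.001 in neonatal lungs, and TU110237 had up to 0.00333 FPKM in fetal and 1.31, 1.08 and 2.01 FPKM in neonatal lungs. Their sum was 1.42 to 1.74 FPKM before and 1.31 to 2.06 FPKM after birth (difference of the sum 0.09).

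In 7 of the 365 loci with at least 2 long-span lncRNAs, a member was higher and another lower with no overlap of the groups, with values under 0.001 FPKM taken as 0. These loci were chosen for opposite members, whose differences offset each other in the sum, so no test of their sums is given. Among the 115 long-span lncRNAs with an unadjusted p under 0.05 that share a locus, the sum of the locus also had such a p for 38, and for 14 its difference had the opposite sign. The table does not show exons, so which part of a locus the reads favoured is not given. Summed per locus, 164 of the 1784 loci had an unadjusted p under 0.05, 54 higher and 110 lower, and none passed the threshold, with a lowest adjusted p of 0.138.

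Some other loci were lower as a whole. They were looked at because a member had a low p, so the p-values of their sums are no independent support for a difference. Members such as TU26992 and TU31448 also entered the table through the fetal group alone. On the plus strand of chromosome 13, 8 overlapping lncRNAs between 50687478 and 51020382 summed to 59.6, 56.3 and 43.6 FPKM in fetal and 1.70, 6.27 and 7.08 FPKM in neonatal lungs (difference -3.31, adjusted p = 0.383 in limma). TU27001, with a span of 292558 bases, held most of it, at 53.3, 42.9 and 39.8 FPKM before and 1.26, 6.27 and 6.95 FPKM after birth. TU26992, of almost the same span (292627 bases), had 2.13, 3.78 and 2.28 FPKM in fetal lungs and was under 0.001 in all neonatal ones. At the locus of TU31448, also on chromosome 13, a pair of longer transcripts of 71952 bases, TU31445 and TU31446, were under 0.001 FPKM in all neonatal lungs, and the sum went from 27.0, 14.4 and 13.7 FPKM to under 0.001 (adjusted p = 0.138). The locus of TU85697 on chromosome 5 (93032326 to 93045423) was not lower as a whole. TU85697 had 1.72, 1.54 and 1.5 FPKM before and under 0.001 after birth. TU85696, of 1051 bases at the same start, had under 0.001, under 0.001 and 0.565 FPKM before and 2.01, 1.02 and 0.534 FPKM after it. Their sum was 1.72, 1.54 and 2.06 FPKM before and 2.01, 1.02 and 0.534 FPKM after birth (difference -0.39), with overlapping groups.

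**Figure D5:**
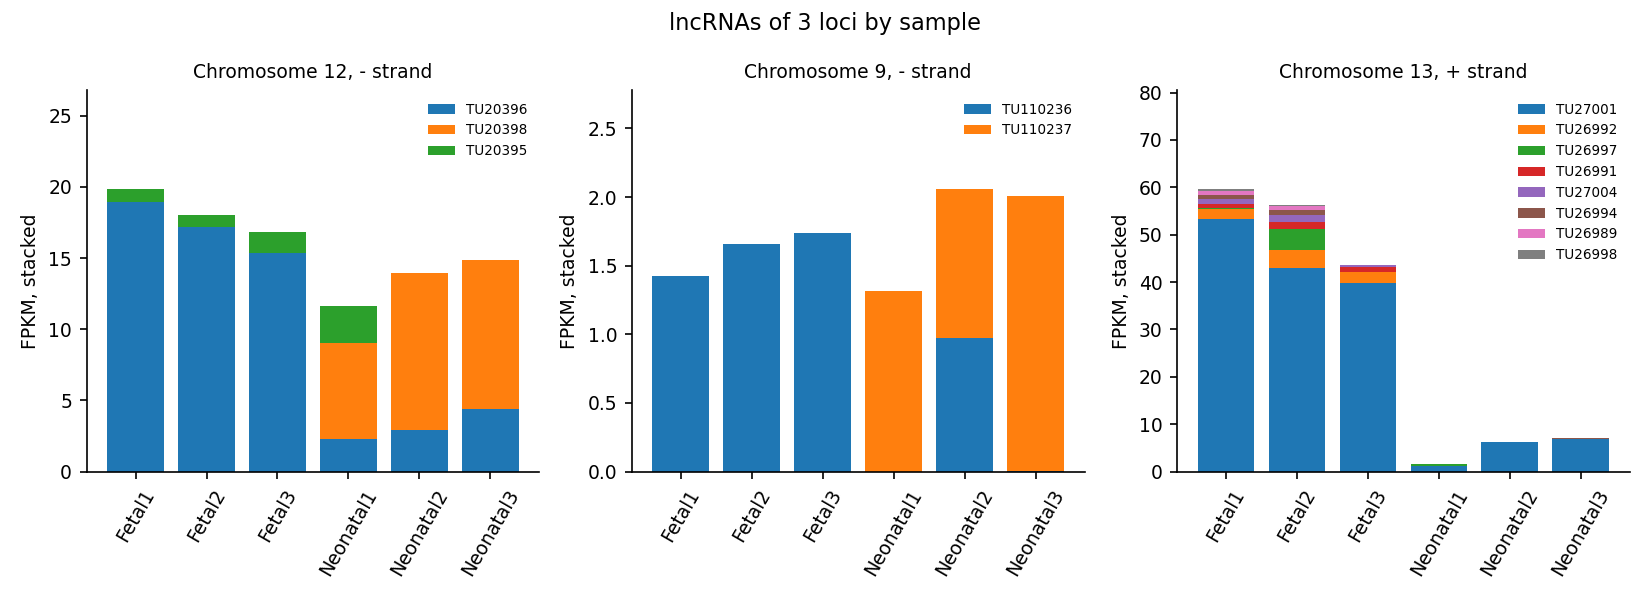
Stacked bars give the FPKM of every lncRNA of 3 loci in each sample, for the loci of TU20398 (chromosome 12), TU110237 (chromosome 9) and TU27001 (chromosome 13). On chromosomes 12 and 9 the leading transcript differs between the groups. The bars keep a similar height on chromosome 9, while on chromosome 12 every neonatal bar is lower than every fetal bar. On chromosome 13 the whole bar is far lower in neonatal lungs.

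The longest transcripts were mostly at low level. TU41591, of 1004543 bases on the plus strand of chromosome 15 (49288192 to 50292734), had 0, 0.544 and 0 FPKM in fetal and 2.04, 3.27 and 2.66 FPKM in neonatal lungs. All neonatal values were above all fetal ones (difference 1.65, SE 0.45, adjusted p = 0.467). TU31180 (chromosome 13, 765687 bases) was present in every sample, with 3.24, 4.36 and 1.65 FPKM before and 1.60, 1.99 and 1.11 FPKM after birth, in a locus of 12 lncRNAs. TU110779 (chromosome 9, 736293 bases) and TU47226 (chromosome 16, 683773 bases) were above 0.1 FPKM in 3 and 2 samples and reached 1.21 and 0.802 FPKM. TU38021 (chromosome 14, 566480 bases) ranged from under 0.001 in Neonatal3 to 3.35 FPKM in Fetal3. Apart from TU41591, the groups of these 5 transcripts overlapped.

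A few long-span lncRNAs were abundant. TU110548, on the plus strand of chromosome 9 (10966731 to 10989134, 22404 bases), had the highest mean, with 1361, 1193 and 973 FPKM in fetal and 1384, 2499.7 and 3317 FPKM in neonatal lungs. Neonatal1 barely exceeded Fetal1, and the difference of 0.95 (SE 0.33) had an adjusted p of 0.550 and was 0.33 with quantile normalization (adjusted p = 0.781). TU48335 (chromosome 16, 77576866 to 77608809) had 211, 406 and 304 FPKM before and 471, 457 and 447 FPKM after birth, a difference of 0.63 that turned to -0.03 with quantile normalization. On chromosome 2, TU55945 and TU55948 share their ends (5693030 to 5814254) and overlap TU55950 (5799873 to 5814254). TU55945 had 372, 365 and 530 FPKM in fetal and 121, 107 and 16.7 FPKM in neonatal lungs (difference -2.76, adjusted p = 0.505). TU55948 varied from 33.6 FPKM in Fetal3 to 715 FPKM in Fetal2, and TU55950 from 213 FPKM in Fetal3 to 574 FPKM in Fetal1, with overlapping groups in both.

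For part of the table the study gives the position of a lncRNA relative to annotated genes. The classification was held here for 1998 lncRNAs, of which 262 span 10 kb or more. Of these 262, 108 were intergenic, 67 antisense to a gene, 58 overlapping a gene on the same strand, 21 divergent from a gene and 8 of other kinds. The mRNA table held the named gene for 115 of them, 95 distinct genes in all. Of these genes, 5 passed the adjusted threshold, all higher in neonatal lungs, where 5.41% of all 14579 mRNAs were higher and 1.45% lower. The pairs below were chosen after their values had been seen. Since the authors counted by strand, reads of an antisense lncRNA and its gene are separated by strand, though how completely was not measured. A lncRNA on the same strand as a gene may share reads with it.

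TU105673 lies antisense to SLC34A2, the phosphate transporter of alveolar type II cells, on the minus strand of chromosome 8 (19823094 to 19847984). It had 0.130, 0.0339 and 0.217 FPKM in fetal and 1.48, 2.18 and 1.57 FPKM in neonatal lungs (difference 1.28, adjusted p = 0.484). SLC34A2 itself had 110.4, 71.8 and 87.4 FPKM before and 108, 94.1 and 78.9 FPKM after birth, so the groups of the gene overlapped. TU110514, antisense to ARRB1, an arrestin that silences G protein-coupled receptors, had 1.56, 2.48 and 1.65 FPKM before and 0.114, 0.341 and 0.463 FPKM after birth (difference -1.14, adjusted p = 0.550). ARRB1 had 13.7, 15 and 16.5 FPKM in fetal and 18.0, 20.7 and 20 FPKM in neonatal lungs (adjusted p = 0.238). For TU106261, which is divergent from DCUN1D4, the values were at most 0.0739 FPKM in fetal and 1.01, 1.00 and 1.37 FPKM in neonatal lungs, and DCUN1D4, a gene of the neddylation machinery, stayed between 1.80 and 2.58 FPKM.

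The 5 partner genes that rose had lncRNAs of differing patterns. The gene of lowest adjusted p, ENSSSCG00000030024, had 3.19, 3.53 and 2.5 FPKM before and 9.91, 10.1 and 8.76 FPKM after birth (difference 1.39, adjusted p = 0.00850). TU108301, on its strand, had 0.948, 1.02 and 1.5 FPKM in fetal and 0.631, 0.476 and 0.585 FPKM in neonatal lungs, lower without overlap (difference -0.46, adjusted p = 0.711). ENSSSCG00000015122 rose at an adjusted p of 0.0347. Of its antisense lncRNAs, TU112495 had 7.26, 3.69 and 0.616 FPKM before and 0.811, 0 and 0.161 FPKM after birth (adjusted p = 0.550), and the other 3 were at most 2.34 FPKM with overlapping groups. CXCL2, a chemokine that draws neutrophils, had 0.586, 0.206 and 0.0962 FPKM before and 2.43, 3.99 and 3.66 FPKM after birth (difference 1.75, adjusted p = 0.00960). Its antisense lncRNA TU107067 ranged from 0 to 0.533 FPKM in fetal and from 0.0355 to 1.24 FPKM in neonatal lungs. LOXL1, a cross-linking enzyme of elastic fibres, rose from 19.6, 13.6 and 27.6 FPKM to 44.5, 46.6 and 54.3 FPKM (adjusted p = 0.0337). Of its antisense lncRNAs, TU101654 ranged from 0 to 1.96 FPKM in all samples and TU101649 from 0.0998 to 1.09 FPKM. COMMD4 rose at an adjusted p of 0.0434, and its antisense lncRNA TU101436 had 1.06 to 1.56 FPKM in fetal and 1.45 to 3.77 FPKM in neonatal lungs. The abundant TU110548 overlaps the gene ENSSSCG00000014859 on the same strand, which had 302, 248 and 374 FPKM before and 524, 703 and 909.5 FPKM after birth (adjusted p = 0.0738).

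The genes that act on long and nuclear transcripts were next counted. RNA exosome subunits and adaptors, which degrade nuclear RNA from its 3′ end, were measured for 16 of 21 listed genes, and the list for nuclear retention and paraspeckles for 11 of 15. In both lists 0 genes passed the threshold in limma, with 0 and 3 at an unadjusted p under 0.05, where 5.41% of all mRNAs were called higher and 1.45% lower. With so few genes, counts of 0 or 1 lie near that share. The median difference was 0.20 in the exosome list and 0.02 in the retention list, beside 0.13 over all mRNAs, and these turned to 0.0154 and -0.28 with quantile normalization. Exosome catalytic subunit EXOSC10 had 9.30, 7.02 and 7.12 FPKM in fetal and 9.13, 8.61 and 10.8 FPKM in neonatal lungs. NONO, a core paraspeckle protein, had 74.1, 55.2 and 64.4 FPKM before and 82.4, 100.3 and 114 FPKM after birth (adjusted p = 0.142). Among genes of transcription elongation and topology, 17 of 21 were measured and 1 passed, with a median difference of 0.10 that turned to -0.0783 with quantile normalization, where CDK13, a kinase of elongation, also passed (-0.59, adjusted p = 0.0408). The gene past the threshold was TOP2A, the topoisomerase of dividing cells, which rose from 2.90, 1.80 and 2.67 FPKM to 22.3, 22.4 and 31.2 FPKM (difference 2.92, adjusted p = 0.00147), while the elongation factor SUPT6H had 6.31 to 8.90 FPKM before and 8.23 to 9.89 FPKM after birth (adjusted p = 0.341).

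Across the 2341 transcripts, samples of a group were on average more alike than samples of different groups, with overlapping ranges (0.452 to 0.625 within and 0.357 to 0.471 between groups). The mean Pearson correlation of log2(FPKM + 1) was 0.531 within and 0.413 between groups for the long-span lncRNAs, 0.603 and 0.50 for those of 1 to 10 kb, and 0.435 and 0.351 for all under 10 kb. These are correlations across transcripts, which share libraries and loci and are not independent replicates. Of the long-span lncRNAs, 781 met the authors' filter through the fetal group alone and 415 through the neonatal group alone. Such a filter by itself makes samples of a group more alike, so these correlations are no support for a group difference.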

How the data were processed

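Lung RNA of 6 piglets, 3 fetal and 3 neonatal, was sequenced by the authors as strand-specific Ribo-Zero libraries. The deposited values are FPKM. Per the submitters' notes and the study's methods, bases were called with CASAVA 1.8.2, reads were mapped to Sscrofa10.2 with TopHat 2.1.0, transcripts were assembled with StringTie 1.2.2 and merged, annotated and coding ones were removed, and the authors computed FPKM with Cufflinks 2.2.1. LncRNAs with FPKM above 0.1 in at least 2 replicates of a group were kept, as were mRNAs with FPKM above 0.5 in a sample. The 12 value columns were matched to samples by name. The tables hold no counts, exons or mRNA coordinates, so depth, spliced length and overlap with genes were not analysed here. No genome of the build was used, and no sequence is shown.

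The span is the end minus the start plus 1. The fit of group differences used limma 3.58.1 (R 4.3.3) and a variance trend on log2(FPKM + 1), over all 19310 lncRNAs and, separately, all 14579 mRNAs, with Benjamini-Hochberg adjustment and a threshold of 0.05. Single values per sample were compared with exact two-sided permutation or sign-flip tests in Python 3.11.15 (numpy 2.4.6, pandas 2.3.3). The fit was run on simulated data with normal noise, which lack the pile of values at 0. It had to return a known change in the median estimate, and the power to detect a change was not judged. P-values measure the spread between piglets, each from its own sow.

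The members, the gene lists and the tests were chosen with earlier results of these data known. LncRNAs were named by a rule: up to 8 in each direction past the threshold or else of lowest p with groups that do not overlap, the 5 longest, the 5 of highest mean FPKM, the 3 nearest the 10 kb limit on each side, and the 3 of highest mean FPKM in each direction listed at 0 in 1 group only. Partner genes come from the study's classification, held in part, and other transcripts of a named locus were chosen after their values were seen. Alternatives were pseudocounts of 0.5 and 0.1, quantile normalization, filters of FPKM above 0.1 or 1 in at least 3 samples, a replicate block, scaling by median-of-ratios factors, a fit with no variance trend, 1 transcript per locus, a span of at least 20 kb, FPKM of 0.1 or less as undetected, the sum without the 10 lncRNAs of highest mean FPKM, and each sample left out. Sums per locus, the comparison with 1 to 10 kb and a term for the 3 libraries with the most lncRNAs at 0 were added after the data had been seen.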

Additional observations from a re-analysis of the deposited data

How the results depend on the processing

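No long-span lncRNA passed the adjusted threshold in limma under the other settings tried, leaving out each sample included, except 3 with a pseudocount of 0.1 and 4 without a variance trend. At an unadjusted p under 0.05 (78 higher, 152 lower), the counts were 51 higher with FPKM above 0.1 in at least 3 samples, 27 higher and 57 lower with FPKM above 1, 101 lower with 1 transcript per locus, 50 higher at a span of 20 kb or more, and 91 lower (112 higher) with quantile normalization. Leaving out single samples gave 33 to 117 higher and 60 to 296 lower. With the replicate number as a block they were 83 and 130, and none passed. Deviations of same-numbered samples from their group means had correlations of -0.039 to -0.014 over all lncRNAs. Other sample pairs were not set beside them, so this cannot exclude a shared batch. No pairing was assumed, since each piglet came from its own sow. The cause of the shifts in the counts was not tested.

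The within-sample difference in the share at 0 (mean -0.063 points) turned to 8.22 with FPKM of 0.1 or less, 1.55 with 1 transcript per locus, 0.280 at 20 kb or more and 8.45 against lncRNAs of 1 to 10 kb, and ran from -0.951 to 0.472 with single samples left out. The lower median level held under every setting run for it, from -0.376 to -0.334 with single samples left out, where 5 samples allow no exact permutation p under 0.0625. The group difference in the share at 0 ran from 4.25 to 12.6 points and that in the share of summed FPKM from -1.20 to -0.682 points with single samples left out.

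Of the named lncRNAs, 4 turned sign. Quantile normalization gave 0.0251 for TU110779, -0.37 for TU55950, -0.0269 for TU48335 and -0.22 for TU55948. The term for the 3 libraries with the most lncRNAs at 0 gave 0.23 for TU110779. With single samples left out, TU110779 ran from -0.45 to 0.25, TU55950 from -0.0104 to 0.70 and TU55948 from -0.90 to 1.28. FPKM without counts limits all of these values, since a transcript listed at 0 cannot be told from a transcript missed at the depth of the library.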

Other observations

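After detection in all 6 samples, the most common patterns of long-span lncRNAs were 130 above 0 everywhere but Neonatal2 (5.55% against 6.82% of all lncRNAs) and 117 everywhere but Fetal3 (5.0% against 6.73%). Next came 105 above 0 in Fetal1 and Fetal2 alone (4.49% against 2.86%) and 95 above 0 everywhere but Neonatal3 (4.06% against 5.34%), and 39 were above 0 in Neonatal1 and Neonatal3 alone (1.67% against 1.05%). By chromosome, the median difference between the groups in long-span lncRNAs ran from -0.39 on chromosome 7, with 117 of them, to 0.09 on chromosome 17, with 47, and was under 0 on all chromosomes but 17. Among the classes of position, the median difference was -0.31 for the 108 intergenic, -0.29 for the 67 antisense and 0.13 for the 21 divergent transcripts, and these differences between classes were not tested.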
